A study of Homo sapiens with 18 samples.

Results

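The clustered protocadherin genes lie in 3 neighbouring clusters, alpha, beta and gamma, on the long arm of chromosome 5, from 140165721 to 140892544 in GRCh37. Members were taken as all genes whose symbol starts with PCDHA, PCDHB or PCDHG. The annotation has 61 such entries, and 51 of these were among the 20329 genes of the count tables: 15 alpha, 15 beta and 21 gamma genes, with the pseudogene PCDHB17P among the beta genes. PCDHB9, PCDHB16, PCDHGB5 and 7 entries for pseudogenes or noncoding RNAs were not analysed here.

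RNA was measured in HAP1 cells, an adherent, near-haploid human line derived from a leukaemia, in 18 samples of 6 groups. Set A held 3 wild-type controls (control A), 3 samples of ΔWAPL clone 3.3, 3 of ΔSCC4 cells and 3 of ΔWAPL/ΔSCC4 cells, and set B held 3 wild-type controls (control B) and 3 samples of ΔWAPL clone 1.14. WAPL releases cohesin from DNA, and SCC4 (gene symbol MAU2) is a subunit of the complex that loads it. The study asked how these factors set the reach of cohesin-mediated loops, and the RNA measurements addressed whether expression changed with them. The knockouts were made by CRISPR-guided insertion of a blasticidin cassette into WAPL or a puromycin cassette into SCC4. ΔWAPL/ΔSCC4 cells were made by knocking out SCC4 in ΔWAPL cells and carry the name of clone 3.3, so that they share its history. All groups share the parental line's mutant p53, and each knockout group is labelled as 1 line, so an effect of the clone and an effect of the gene cannot be told apart within a group. Nothing in the labels says that replicates came from separate cultures, and the p-values measure only the spread between these samples, which may be technical.

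Clustered protocadherins are cell adhesion proteins of the cadherin superfamily, best known from neurons. Each alpha and gamma gene has its own first exon with its own promoter, and this exon is spliced to constant exons at the end of the cluster, whereas each beta gene is a single large exon of its own. A neuron expresses a small choice of the promoters, and distant enhancers reach them through loops made by cohesin and CTCF, a DNA-binding protein that stops cohesin. Members named with a C (PCDHAC1, PCDHAC2, PCDHGC3, PCDHGC4 and PCDHGC5) stand next to the constant exons and are known to be used more uniformly.

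The shared exons decide which reads could be counted. The alpha genes share 3 constant exons (140358534 to 140358592, 140362060 to 140362148 and 140389212 to 140391932), of 59, 89 and 2721 bases, and all 21 gamma genes share exons of 59, 89 and 2029 bases (140874374 to 140874432, 140884960 to 140885048 and 140890514 to 140892542). A read on these bases belongs to several genes, and HTSeq in its usual modes sets such a read aside as ambiguous, although the mode is not given in the sources used here. Of the reads counted on a gene, set aside as ambiguous or on no gene, 1.71 to 2.06% per sample were ambiguous over the whole genome. The counts of alpha and gamma genes are therefore taken here to come from the unshared bases. The shared part ranged from 19.2% of the exon length in PCDHA10 to 64.4% in PCDHGB4. A further stretch of 2266 bases was shared by a pair of gamma genes, PCDHGB4 and PCDHGA8, and stretches of 562, 84 and 58 bases by pairs of alpha genes. The beta genes share no exon, but they resemble each other in sequence, and reads aligned to more than 1 place were left out too. Between genes, levels are compared below only per kilobase (kb) of unshared exon.

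The promoters of the members that passed the test in at least 2 comparisons are shown here, where an entry was found. Most clustered protocadherin promoters share a short conserved element, and its core was looked for. RefSeq promoters (250 bases before to 50 after the start) were found for 44 of the 51 members, 48 promoters in all. No entry was found for PCDHA3, PCDHA13, PCDHB6, PCDHB11, PCDHB17P, PCDHGA12 and PCDHGC5. The letters CGCT, the core of the conserved element of these promoters, stood on the gene's strand in 47 of 48 (97.9%) and on either strand in the same 97.9%, against 54.3% and 70.0% of all 35116 RefSeq promoters. Only the PCDHA9 promoter held none. So short a match does not show that a promoter holds the whole element. The commonest stretch of 9 bases around the core differed between the clusters. GGTGGCGCT was in 11 of 12 beta promoters and in no alpha or gamma promoter (0.501% of all promoters on either strand), GATGTCGCT in 9 of 13 alpha promoters (0.105%), and GCGCCGCTG in 10 of 23 gamma promoters (1.28%). These longer stretches were picked by their frequency in these promoters, and the matches are descriptions. The parts of the PCDHA11, PCDHAC2 and PCDHGC3 promoters printed below hold CGCT but none of the longer stretches. The bases from 100 before to 50 after the start, or the part of them found unchanged in GRCh37, are given 5′ to 3′ on the plus strand, with CGCT in capitals.
PCDHA11 (chr5:140248442-140248591): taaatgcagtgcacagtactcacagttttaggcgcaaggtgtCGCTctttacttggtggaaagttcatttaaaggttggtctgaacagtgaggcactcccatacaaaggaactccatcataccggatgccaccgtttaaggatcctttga
PCDHAC2 (chr5:140345961-140346110): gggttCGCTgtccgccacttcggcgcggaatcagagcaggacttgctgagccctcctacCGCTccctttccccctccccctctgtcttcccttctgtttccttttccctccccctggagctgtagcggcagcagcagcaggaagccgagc
PCDHB2 (chr5:140474100-140474192): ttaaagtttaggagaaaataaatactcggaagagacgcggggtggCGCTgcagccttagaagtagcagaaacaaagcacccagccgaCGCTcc
PCDHB3 (chr5:140479957-140480106): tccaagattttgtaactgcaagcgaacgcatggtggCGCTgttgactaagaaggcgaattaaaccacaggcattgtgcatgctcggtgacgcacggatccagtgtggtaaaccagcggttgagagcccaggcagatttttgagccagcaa
PCDHB5 (chr5:140514688-140514837): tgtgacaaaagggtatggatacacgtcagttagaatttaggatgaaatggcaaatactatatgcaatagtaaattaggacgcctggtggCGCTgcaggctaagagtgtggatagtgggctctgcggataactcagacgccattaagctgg
PCDHB8 (chr5:140557271-140557420): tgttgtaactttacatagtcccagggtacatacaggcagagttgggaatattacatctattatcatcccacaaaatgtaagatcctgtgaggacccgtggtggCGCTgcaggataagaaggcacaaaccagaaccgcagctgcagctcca
PCDHB12 (chr5:140588191-140588340): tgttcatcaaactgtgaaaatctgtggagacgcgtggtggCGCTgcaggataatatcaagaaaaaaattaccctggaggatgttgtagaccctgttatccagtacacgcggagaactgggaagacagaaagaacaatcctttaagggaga
PCDHB14 (chr5:140602815-140602964): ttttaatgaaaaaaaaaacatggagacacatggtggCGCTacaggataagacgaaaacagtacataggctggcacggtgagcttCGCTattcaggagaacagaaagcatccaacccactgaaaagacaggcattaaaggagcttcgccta
PCDHGA10 (chr5:140792454-140792603): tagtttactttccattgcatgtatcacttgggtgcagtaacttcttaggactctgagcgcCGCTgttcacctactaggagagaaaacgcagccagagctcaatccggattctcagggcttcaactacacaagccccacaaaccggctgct
PCDHGC3 (chr5:140855433-140855582): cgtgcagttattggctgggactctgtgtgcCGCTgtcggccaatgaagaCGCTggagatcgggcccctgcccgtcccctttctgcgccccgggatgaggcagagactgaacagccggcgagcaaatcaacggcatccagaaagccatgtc

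Each sample had between 10007646 and 20711127 reads on genes, with a median of 16177867.5. Levels are in CPM, read counts scaled to the depth of each sample, after TMM normalization over all 18 samples. WAPL stood at 78.1 to 121 CPM in control A and 104 to 131 in control B, and at 38.0 to 50.2 in the 3 groups without WAPL, with no overlap. MAU2 stood at 52.1 to 72.7 CPM in the 4 groups with SCC4 and at 0.509 to 1.04 in ΔSCC4 and ΔWAPL/ΔSCC4 cells. The targeted genes thus differed in the direction that the labels name, and WAPL reads remained after the insertion into the gene. In bulk RNA, fewer cells that express a gene and less RNA per cell cannot be told apart.

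The members were expressed at low levels, and a few genes led each cluster. Per kb of unshared exon and over all 18 samples, PCDHAC2, the last alpha gene, led its cluster at 0.881 CPM per kb, followed by PCDHA3 at 0.669 and PCDHA2 at 0.282. In the beta cluster PCDHB5 led at 5.41 CPM per kb, above PCDHB2 at 1.03 and PCDHB3 at 0.870. In the gamma cluster PCDHGC3 led at 2.86 CPM per kb, followed by PCDHGA10 at 1.11 and PCDHGB2 at 0.260. The same 3 genes led each cluster when levels were taken over the length of all exons. PCDHB5, PCDHGC3 and PCDHGA10 kept their places in all 6 groups, while the others did not. In ΔSCC4 cells PCDHA3 led the alpha genes at 0.571 CPM per kb, above PCDHA2 at 0.278 and PCDHAC2 at 0.211. PCDHB3 lay above PCDHB2 in clone 3.3, clone 1.14 and ΔSCC4 cells, and in control A PCDHB13 at 0.614 and PCDHB14 at 0.559 CPM per kb came next after PCDHB5. PCDHB5 was the highest member of all in ΔSCC4, ΔWAPL/ΔSCC4 and both ΔWAPL clones. In control A its 2.24 ± 0.173 CPM per kb (SD, n = 3) lay below the 3.38 ± 0.540 of PCDHGC3 (SD, n = 3), and in control B its 3.11 ± 0.184 lay below 3.93 ± 0.169 (SD, n = 3).

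Position alone did not order the levels. The alpha genes PCDHA2 and PCDHA3 near the start of the cluster and PCDHAC2 at its end were read in all 18 samples. PCDHA1 was at 0 in 2 samples. The 5 alpha genes from PCDHA4 to PCDHA8 never had more than 3 counts in a sample. Those from PCDHA9 to PCDHAC1 were at 0 in 3 to 7 samples, and their highest counts were 4 to 22. PCDHB1, the first beta gene, had no read in any of the 18 samples. A count of 0 in a single library, taken alone, allows up to 3 expected counts there (counting error only). The other beta genes were read more evenly, and 12 of 15 reached 10 counts in at least 1 sample, against 7 of 15 alpha and 7 of 21 gamma genes. In the gamma cluster the pair that led, PCDHGA10 and PCDHGC3, stood at positions 16 and 22 of the 24 annotated gamma entries, with genes of at most 20 counts between them. PCDHGC4 and PCDHGC5, which follow PCDHGC3, never exceeded 3 counts. Of the 51 members, 13 stayed at 3 counts or fewer in every sample and 8 had at least 10 in every sample.

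**Figure D1:**
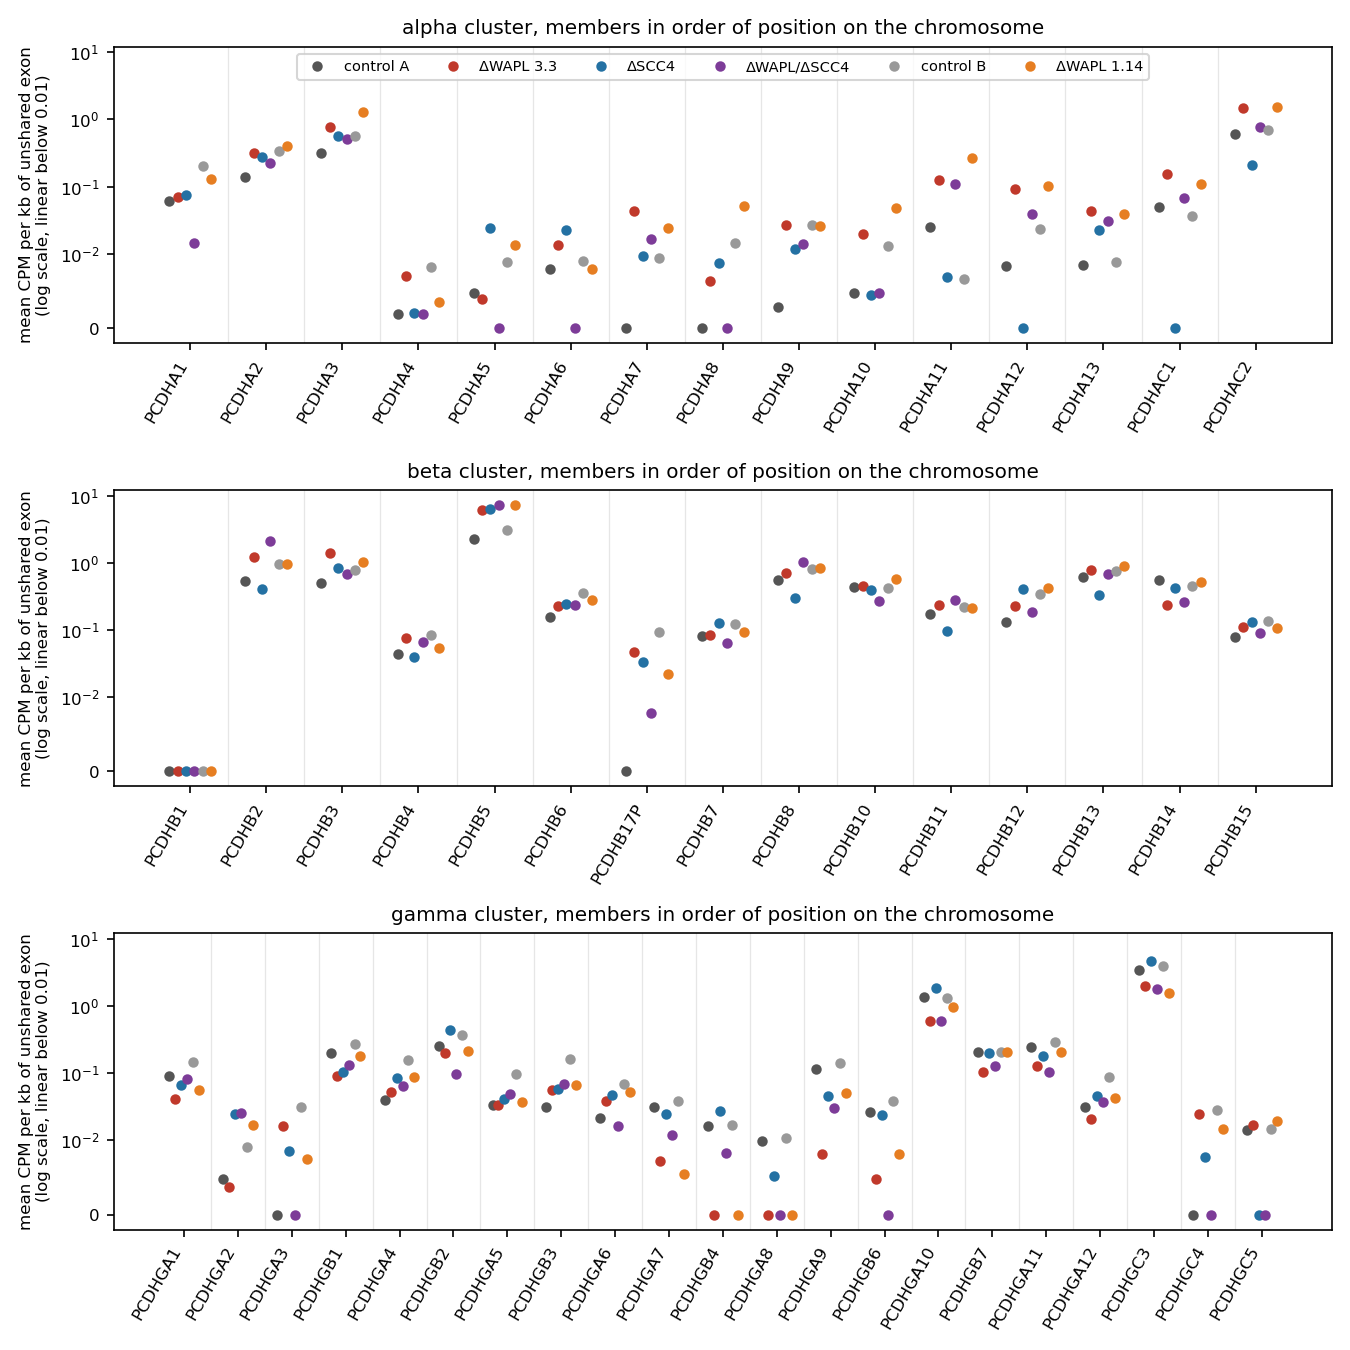
Mean level of each member in CPM per kb of unshared exon (n = 3 per point), in the order of the genes on the chromosome, with 1 colour for each of the 6 groups; the y axis is logarithmic and linear below 0.01. PCDHAC2 and PCDHA3 lead the alpha cluster except in ΔSCC4 cells, where PCDHAC2 lies below PCDHA3 and PCDHA2. PCDHB5 leads the beta cluster and PCDHGC3 the gamma cluster, and PCDHB1 lies at 0 in every group.

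The summed level of a cluster differed from the controls in opposite directions in ΔWAPL cells, upward for alpha and beta and downward for gamma. The alpha sum was 4.25 ± 0.312 CPM (SD, n = 3) in control A and 11.1 ± 1.17 CPM (SD, n = 3) in clone 3.3, and 6.83 ± 0.893 CPM (SD, n = 3) in control B and 14.4 ± 1.61 CPM (SD, n = 3) in clone 1.14. Both clones lay above all of their controls, by 2.60-fold and 2.11-fold. The beta sum was 22.5 ± 1.42 CPM (SD, n = 3) in control A against 42.3 ± 4.56 CPM (SD, n = 3) in clone 3.3, and 31.3 ± 3.72 CPM (SD, n = 3) in control B against 47.8 ± 2.01 CPM (SD, n = 3) in clone 1.14, again without overlap. Without PCDHB5 the beta ratio was 1.46 in clone 3.3 and 1.10 in clone 1.14, so that this gene held most of the beta difference in clone 1.14. The gamma sum was lower in both clones, at 11.6 ± 0.683 CPM (SD, n = 3) in clone 3.3 against 21.3 ± 0.913 CPM (SD, n = 3) in control A, and at 13.1 ± 1.02 CPM (SD, n = 3) in clone 1.14 against 25.3 ± 1.19 CPM (SD, n = 3) in control B. Their ratios of 0.547 and 0.518 became 0.509 and 0.648 without PCDHGC3.

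In ΔSCC4 cells the 3 sums behaved differently. The alpha sum of 4.37 ± 0.401 CPM (SD, n = 3) overlapped that of control A, with a ratio of 1.03, while without PCDHAC2 the ratio was 1.61. The beta sum was 1.60 times that of control A and the gamma sum 1.30 times, at 27.6 ± 0.888 CPM (SD, n = 3). Without PCDHB5 the beta ratio was 0.949, so its direction rested on that gene. In ΔWAPL/ΔSCC4 cells the gamma sum stood at 11.1 ± 0.608 CPM (SD, n = 3), overlapping clone 3.3, and the beta sum at 47.7 ± 1.85 CPM (SD, n = 3) was the highest of set A by its mean. The alpha sum at 6.25 ± 0.121 CPM (SD, n = 3) lay between control A and clone 3.3. No test was run on these sums.

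**Figure D2:**
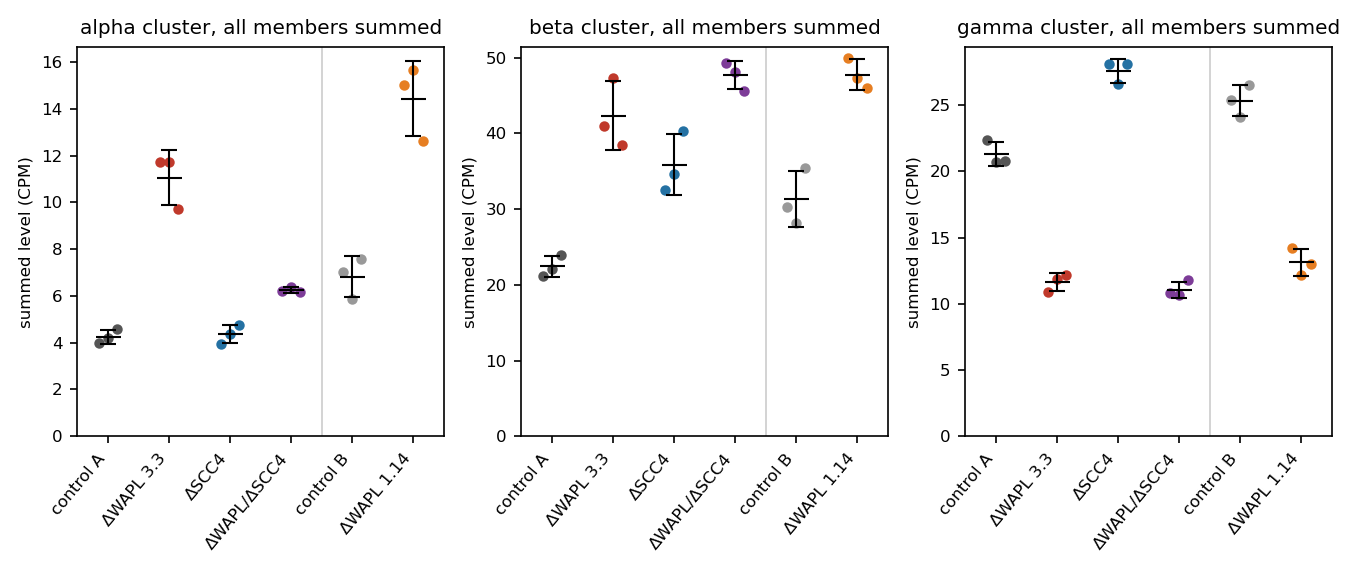
Summed level in CPM of all 15 alpha, 15 beta and 21 gamma members in each of the 18 samples (points), with mean and SD (bars, n = 3), for the 4 groups of set A and, right of the line, the 2 groups of set B. Both ΔWAPL clones lie above their controls in the alpha and beta clusters and below them in the gamma cluster, where ΔWAPL/ΔSCC4 cells are also low and ΔSCC4 cells are the highest of set A.

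WAPL loss was first compared over the clones together, adjusting for the set, by edgeR's quasi-likelihood test. A gene passed the threshold at a Benjamini-Hochberg adjusted p under 0.05 over all genes tested. The alpha genes PCDHAC2, PCDHA3 and PCDHA11 and the beta genes PCDHB5 and PCDHB3 rose, by 1.92-fold to 2.51-fold in 4 of them, and the gamma genes PCDHGC3 and PCDHGA10 fell. Of the 20 members that could be tested, 5 rose and 2 fell, against 8.56% and 9.13% of all 12786 genes tested. The other 31 members had too few reads. The median log2 fold change was 1.21 over the 4 alpha genes tested, 0.28 over the 10 beta genes and -0.745 over the 6 gamma genes, beside 0.0048 over all genes. Without control B replicate 3, 11 members passed, as did 19.3% of all genes. PCDHA11 entered the test only through the ΔWAPL samples, where it was high, so its call is no support for the count of alpha and beta genes or for the alpha median. The tested members are those with more reads, and their medians do not stand for all members.

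In clone 3.3 against control A, 5 members rose and 3 fell of 14 tested, against 4.17% and 3.9% of all 12489 genes. In clone 1.14 against control B, 4 rose and 2 fell of 20 tested, against 8.7% and 11.4% of all 12636 genes. Of the 4, PCDHA11 entered this test only through clone 1.14, where it was high, so its call is no support for this count. PCDHAC2, PCDHA3, PCDHB5, PCDHGC3 and PCDHGA10 passed in both clones with the same direction.

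PCDHAC2 and PCDHA3, an alpha gene of the C type and one of the alternate type, rose to a like extent. PCDHAC2 (140346055 to 140391932) had 2.28, 1.66 and 1.97 CPM in the samples of control A and 5.28, 5.52 and 3.79 in clone 3.3, and 2.53, 2.02 and 2.31 in control B and 5.72, 5.16 and 4.22 in clone 1.14. Every ΔWAPL sample lay above every control of either set. Over both clones its log2 fold change was 1.22 (SE 0.14, adjusted p = 1.65e-05 from edgeR), or 2.33-fold. PCDHA3 (140180613 to 140391932) had 0.911, 1.42 and 1.49 CPM in control A and 3.29, 3.18 and 2.79 in clone 3.3, and 2.19, 2.08 and 2.64 in control B and 5.09, 5.99 and 4.46 in clone 1.14. The ranges were separate within each set, and its log2 fold change was 1.21 (SE 0.14, adjusted p = 1.82e-05 from edgeR). The share of PCDHAC2 in the alpha counts had a median of 42.9% in control A and 45.1% in clone 3.3, and of 34.5% in control B and 33.5% in clone 1.14, with overlapping ranges in both sets.

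PCDHA11 was hardly read in the controls, where no sample reached the level of the filter on low counts, with 2, 1 and 1 counts in control A and 0, 1 and 0 in control B, and had 11, 7 and 3 counts in clone 3.3 and 22, 14 and 12 in clone 1.14. It is described here by its counts, because a gene that enters the test only where it is high had to differ. In clone 3.3 alone it could not be tested. In clone 1.14 there were 48 counts against 1 in control B, a ratio of 43.7 per total count with an exact 95% interval from 7.47 to 1761. In clone 3.3 there were 21 counts against 4, a ratio of 5.19 with an interval from 1.75 to 20.8; these intervals cover counting error only. ΔSCC4 cells had 0, 0 and 1 counts and ΔWAPL/ΔSCC4 cells 6, 5 and 8, so that PCDHA11 was read more in each group without WAPL than in the controls of its set.

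PCDHB5 (140514788 to 140518197), the most abundant member, rose in both clones. It had 8.20, 7.71 and 7.03 CPM in control A and 19.7, 23.2 and 19.0 in clone 3.3, and 10.7, 9.95 and 11.2 in control B and 25.6, 25.6 and 23.8 in clone 1.14. All ΔWAPL samples lay above all controls, with a log2 fold change of 1.33 over both clones (SE 0.08, adjusted p = 3.13e-08 from edgeR). Its share of the beta counts had a median of 34.8% in control A and 49.0% in clone 3.3, and of 35.2% in control B and 51.6% in clone 1.14, without overlap. PCDHB3, which neighbours PCDHB2, had 1.95, 1.36 and 1.61 CPM in control A and 4.18, 5.45 and 4.45 in clone 3.3, and 2.94, 2.29 and 2.59 in control B and 3.92, 2.91 and 3.62 in clone 1.14. The ranges overlapped in set B, through the second sample of clone 1.14 and the first of control B. Over both clones its log2 fold change was 0.94 (SE 0.20, adjusted p = 0.00326 from edgeR), and in clone 1.14 alone 0.42 (SE 0.16, adjusted p = 0.113 from edgeR), which did not pass.

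PCDHB2 (140474191 to 140478287) and PCDHB14 (140602915 to 140607331) passed in clone 3.3 and not in clone 1.14. PCDHB2 had 2.15, 2.22 and 2.15 CPM in control A and 4.68, 4.46 and 5.71 in clone 3.3, a log2 fold change of 1.17 (SE 0.20, adjusted p = 0.00115 from edgeR). In set B it had 3.96, 3.16 and 4.44 CPM in control B and 3.87, 3.56 and 4.28 in clone 1.14, with overlapping ranges and a log2 fold change of 0.00 (95% interval -0.29 to 0.30). PCDHB14, toward the end of the beta cluster, fell in clone 3.3, with 0.897, 1.49 and 0.731 CPM against 2.21, 2.096 and 3.10 in control A (log2 fold change -1.29, SE 0.29, adjusted p = 0.00991 from edgeR). In set B the samples of clone 1.14 had 2.70, 2.14 and 1.93 CPM and those of control B 1.78, 1.81 and 2.36, and the ranges overlapped.

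The gamma genes went the other way. PCDHGC3, the leading gamma gene and a C-type member, had 13.0, 9.80 and 10.2 CPM in control A and 5.38, 6.51 and 7.31 in clone 3.3, and 12.8, 12.2 and 13.3 in control B and 5.35, 4.69 and 4.95 in clone 1.14. Every ΔWAPL sample lay below every control, with a log2 fold change of -1.07 over both clones (SE 0.13, adjusted p = 2.33e-05 from edgeR). In clone 3.3 alone it was -0.81 (adjusted p = 0.0140 from edgeR), and without replicate 1 or 2 of that clone it was -0.67 or -0.83 with adjusted p = 0.0714 or 0.0572. PCDHGA10 had 5.53, 6.97 and 5.72 CPM in control A and 2.84, 3.04 and 1.99 in clone 3.3, and 6.01, 5.71 and 5.79 in control B and 4.77, 3.74 and 4.22 in clone 1.14, again with no overlap. Its log2 fold change was -0.81 over both clones (SE 0.15, adjusted p = 0.00161), -1.22 in clone 3.3 (SE 0.21, adjusted p = 0.000973) and -0.46 in clone 1.14 (SE 0.12, adjusted p = 0.0304, all from edgeR). The last call was lost without control B replicate 1 (adjusted p = 0.107) and without clone 1.14 replicate 2 or 3 (0.0904 and 0.0996), DESeq2 gave an adjusted p of 0.149, and one fit over all 18 samples gave 0.0589. The shares of the leading pair were like those of the controls in clone 3.3 but not in clone 1.14, where PCDHGC3 made up 37.7 to 38.5% of the gamma counts against 50.3 to 50.7% in control B, and PCDHGA10 30.7 to 33.6% against 21.9 to 23.7%. None of the 6 gamma genes tested had a positive log2 fold change over both clones. PCDHGB1 (log2 fold change -0.78, SE 0.24, adjusted p = 0.0504), PCDHGA11 (-0.71, SE 0.24, adjusted p = 0.0601) and PCDHGB2 (-0.56, SE 0.23, adjusted p = 0.121, all from edgeR) did not pass.

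**Figure D3:**
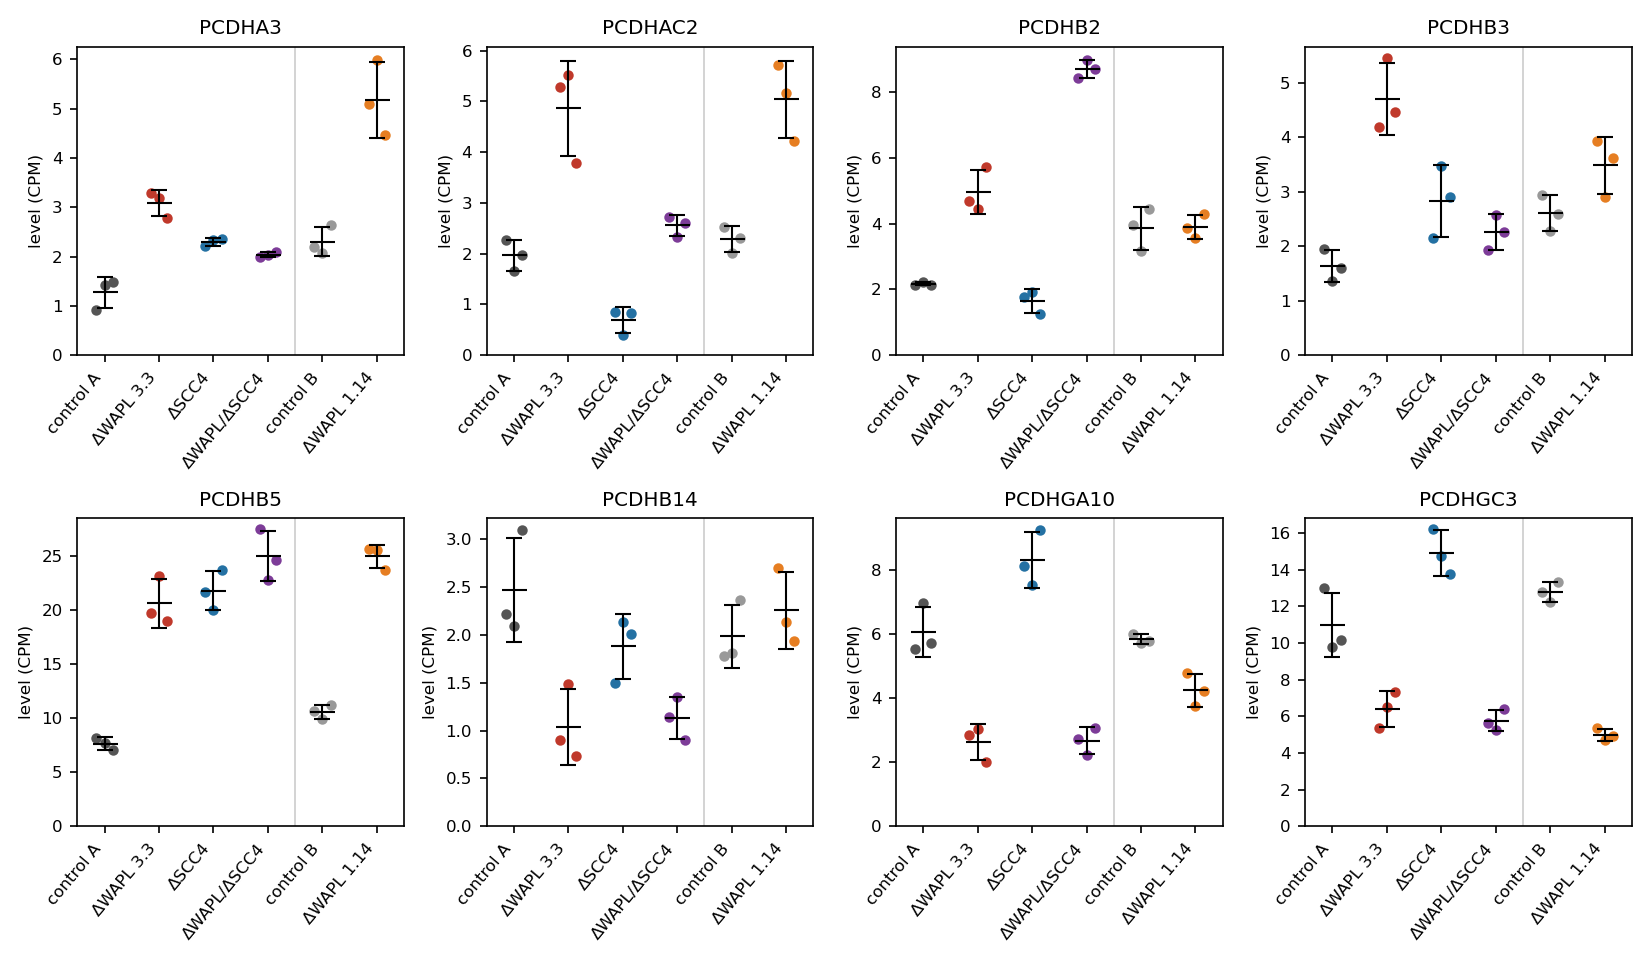
Level in CPM of 8 members in each of the 18 samples (points), with mean and SD (bars, n = 3), for set A and, right of the line, set B. PCDHB5 is higher in all 4 knockout groups than in the controls of their set, PCDHGA10 and PCDHGC3 are lower wherever WAPL was lost, and PCDHAC2 is lowest in ΔSCC4 cells.

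Whether the clones differed in their response was tested as an interaction. The change of PCDHB2 was larger in clone 3.3 than in clone 1.14 by 1.17 on the log2 scale (SE 0.23, adjusted p = 0.0115 from edgeR), and that of PCDHB3 by 1.09 (SE 0.26, adjusted p = 0.0454). These 2 of 20 members tested stand against 2.65% of all 12786 genes. The difference for PCDHB14 was -1.45 (SE 0.36, adjusted p = 0.0522 from edgeR) and did not pass. The PCDHB3 call was lost in 15 of 18 alternatives, with adjusted p-values up to 0.145 and differences from 0.97 to 1.21. Between the control sets PCDHB2 was higher in control B than in control A by 0.82 on the log2 scale (unadjusted p = 0.00129, adjusted p = 0.0951 from edgeR), and PCDHB3 by 0.65 (SE 0.21, adjusted p = 0.267). No member passed between the control sets, where 0.64% of all 12509 genes did. Of the 18 members tested there, 7 had an unadjusted p under 0.05 from edgeR, as did 1394 of all 12509 genes. DESeq2 called 0 members and 1.34% of all genes. One fit over all 18 samples called 3 of 21 members, PCDHA3, PCDHB2 and PCDHB5, and 3.14% of all genes. The median log2 difference was 0.44 over the 18 members of the first fit and -0.0186 over all genes, with control B higher.

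ΔSCC4 cells were compared with control A. PCDHB5 and PCDHB12 rose and PCDHAC2 fell, so that 2 members rose and 1 fell of 15 tested, against 5.45% and 4.03% of all 12503 genes. PCDHB12, with 5 to 13 counts in control A, and PCDHAC2, with 4 to 13 counts in ΔSCC4 cells, entered this test only through the group where they were higher. The calls of PCDHB12 and PCDHAC2 are therefore no support for this count, which leaves PCDHB5. PCDHB5 had 21.7, 20.1 and 23.7 CPM in ΔSCC4 cells, above every control of either set (log2 fold change 1.50, SE 0.15, adjusted p = 0.000130 from edgeR). PCDHAC2 had 0.845, 0.407 and 0.829 CPM, below every other sample of the study (log2 fold change -1.44, SE 0.30, adjusted p = 0.0127 from edgeR). Its neighbour PCDHAC1, singled out after its values were seen, had no read in any of the 3 ΔSCC4 samples and 3, 5 and 2 counts in control A. PCDHB12 had 0.975, 1.32 and 2.42 CPM against 0.456, 0.308 and 0.774 in control A, a log2 fold change of 1.59 (SE 0.45, adjusted p = 0.0497 from edgeR). The wild-type cells of control B had 0.820 to 1.86 CPM, overlapping ΔSCC4 cells. They differed from control A by 1.37 on the log2 scale (SE 0.41, adjusted p = 0.221 from edgeR). The PCDHB12 call was lost without control A replicate 2 (1.32, adjusted p = 0.211), ΔSCC4 replicate 2 (1.69, 0.0854) or ΔSCC4 replicate 3 (1.10, 0.128). PCDHA3 had 2.21, 2.34 and 2.35 CPM, above control A, with a log2 fold change of 0.83 (SE 0.24, adjusted p = 0.0616 from edgeR), which did not pass. These values lay within the range of control B, 2.08 to 2.64 CPM. The share of PCDHAC2 in the alpha counts was thus a median of 17.4% in ΔSCC4 cells and that of PCDHA3 53.5%, against 42.9% and 32.5% in control A.

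ΔSCC4 samples and controls of the same number deviated together, with correlations of 0.821, 0.206 and 0.745. When the replicate number entered the fit as a block, 8 members passed, while 46.0% of all 12503 genes did. Without the block, 6 members passed when control A replicate 1 was left out, as did 18.3% of all genes. Beside the 3 named above, PCDHGC3 (log2 fold change 0.42, SE 0.10, adjusted p = 0.00518), PCDHA3 (0.84, SE 0.23, adjusted p = 0.0120), PCDHGA10 (0.46, SE 0.14, adjusted p = 0.0195) and PCDHB3 (0.75, SE 0.25, adjusted p = 0.0283) rose and PCDHB13 fell (-0.95, SE 0.22, adjusted p = 0.00513, all from edgeR with the block). PCDHGC3 had 16.2, 14.8 and 13.8 CPM and PCDHGA10 8.13, 7.53 and 9.26 CPM in ΔSCC4 cells, each above all samples of control A.

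ΔWAPL/ΔSCC4 cells were compared with control A, with clone 3.3 and with ΔSCC4 cells, comparisons that share samples with each other and with those above. Against control A, 2 members rose and 3 fell of 15 tested, against 4.65% and 3.3% of all 12594 genes. PCDHB2 rose most, to 8.42, 8.97 and 8.71 CPM, the highest samples of the study for this gene (log2 fold change 2.00, SE 0.15, adjusted p = 1.27e-05 from edgeR). PCDHB5 had 27.5, 22.9 and 24.7 CPM (log2 fold change 1.71, SE 0.14, adjusted p = 2.12e-05). PCDHGA10, at 2.73, 2.21 and 3.05 CPM, fell by 1.19 on the log2 scale (SE 0.17, adjusted p = 0.00145), and PCDHGC3, at 5.63, 5.28 and 6.39 CPM, fell by 0.93 (SE 0.16, adjusted p = 0.00489, all from edgeR). Both gamma genes overlapped clone 3.3 and lay below all samples of the groups with WAPL. PCDHB14 had 1.14, 1.35 and 0.905 CPM and fell by 1.13 on the log2 scale (adjusted p = 0.0176 from edgeR). Without ΔWAPL/ΔSCC4 replicate 1 or 3 its adjusted p was 0.0845 or 0.0676, at log2 fold changes of -1.14 and -0.99. PCDHAC2, at 2.73, 2.33 and 2.60 CPM, and PCDHA3, at 1.99, 2.03 and 2.09 CPM, did not pass (log2 fold changes 0.37 and 0.67, adjusted p = 0.383 and 0.125 from edgeR).

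In ΔWAPL/ΔSCC4 cells 1 alpha gene and 1 beta gene were lower than in clone 3.3 and 1 beta gene was higher. Against clone 3.3, PCDHAC2 fell by 0.93 on the log2 scale (SE 0.19, adjusted p = 0.00397), PCDHB3 fell by 1.05 (SE 0.19, adjusted p = 0.00141) and PCDHB2 rose by 0.81 (SE 0.15, adjusted p = 0.00173, all from edgeR). These 1 higher and 2 lower of 15 tested stand against 6.05% and 4.55% of all 12544 genes. PCDHB3, at 1.93, 2.58 and 2.26 CPM in ΔWAPL/ΔSCC4 cells, lay below all samples of clone 3.3. PCDHA3 had a log2 fold change of -0.60 (SE 0.19, adjusted p = 0.0528 from edgeR), with separate ranges, and did not pass. Without clone 3.3 replicate 3, 5 members passed, as did 14.2% of all genes. PCDHGC3 (log2 fold change -0.14, 95% interval -0.46 to 0.18) and PCDHGA10 (0.02, 95% interval -0.39 to 0.44) did not pass here, with overlapping ranges.

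Against ΔSCC4 cells, 9 of the 16 members tested passed in ΔWAPL/ΔSCC4 cells. Of these, 5 rose and 4 fell, against 13.7% and 13.6% of all 12604 genes. In 5 of the 9, PCDHAC2, PCDHB8, PCDHB11, PCDHB12 and PCDHGB2, too few samples of the lower group reached the level of the filter on low counts, so they entered the test only through the group where they were higher and had to differ. PCDHB2 rose by 2.42 on the log2 scale (SE 0.20, adjusted p = 1.04e-07) from 1.75, 1.93 and 1.24 CPM in ΔSCC4 cells, and PCDHAC2 rose by 1.80 (SE 0.28, adjusted p = 0.000134, both from edgeR). PCDHB8 had 0.910, 0.509 and 1.04 CPM in ΔSCC4 and 2.50, 3.38 and 2.54 in ΔWAPL/ΔSCC4 cells (log2 fold change 1.70, SE 0.28, adjusted p = 0.000207 from edgeR), beside 1.04, 1.97 and 1.49 in control A and 2.24, 2.05 and 1.40 in clone 3.3. PCDHB11 (1.57, SE 0.39, adjusted p = 0.00680) and PCDHB13 (1.04, SE 0.27, adjusted p = 0.00896, both from edgeR) rose too. The PCDHB13 call was lost without ΔSCC4 replicate 2 (0.93, adjusted p = 0.0729). PCDHGC3 fell by 1.37 (SE 0.16, adjusted p = 4.90e-06), PCDHGA10 fell by 1.64 (SE 0.18, adjusted p = 3.96e-06) and PCDHGB2 fell by 2.09 (SE 0.43, adjusted p = 0.00190, all from edgeR). PCDHGB2 had 3 to 5 counts in ΔWAPL/ΔSCC4 cells and 13 to 17 in ΔSCC4 cells. PCDHB12, which lies between PCDHB11 and PCDHB13, fell by 1.17 (SE 0.37, adjusted p = 0.0255 from edgeR) to 0.796, 0.860 and 0.452 CPM, and its adjusted p was 0.178 without ΔSCC4 replicate 3, 0.0731 without ΔSCC4 replicate 2, 0.0641 and 0.0961 without ΔWAPL/ΔSCC4 replicates 1 and 3, and 0.0595 by DESeq2.

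In set A the change in ΔWAPL/ΔSCC4 cells was also set against the sum of the changes in the single knockouts, a test of the interaction that was chosen after the data were seen. Of 17 members tested, 5 passed, against 11.3% of all 12817 genes. PCDHB5 was 1.21 lower on the log2 scale than the sum of both changes (log2 interaction -1.21, SE 0.18, adjusted p = 0.000386), and so the separate rises did not add up. PCDHB3 (-1.79, SE 0.30, adjusted p = 0.00101) and PCDHA3 (-1.42, SE 0.27, adjusted p = 0.00245, all from edgeR) were also below the sum. PCDHB2 (1.25, SE 0.25, adjusted p = 0.00384) and PCDHB8 (1.39, SE 0.41, adjusted p = 0.0397, both from edgeR) were above it. The PCDHB8 call was lost in 10 of 17 alternatives, with adjusted p-values up to 0.125. Control A enters this test, and a lower control A gives a lower interaction. Control A lay below control B by 0.46 on the log2 scale for PCDHB5, 0.65 for PCDHB3 and 0.84 for PCDHA3. It also lay below by 0.82 for PCDHB2 and 0.57 for PCDHB8. None of these differences passed, and their part in the interaction was not tested. PCDHAC2, with opposite changes in the single knockouts, did not depart from the sum beyond its error (0.52, 95% interval -0.15 to 1.20), and neither leading gamma gene passed.

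Other genes of the locus and of the wider family give the setting. Within 500 kb of the clusters the tables hold 31 other genes, of which 22 could be tested. Over both clones 0 rose and 1 fell, against 8.56% and 9.13% of all genes. The gene that fell was PCDH1 (log2 fold change -0.32, SE 0.09, adjusted p = 0.0271 from edgeR), and the median over the 22 genes was -0.010. None passed in clone 3.3 alone, and 1 fell in clone 1.14 alone, as did 11.4% of all genes. In ΔSCC4 cells DELE1 rose (0.51, adjusted p = 0.0436 from edgeR), as did 5.45% of all genes. In ΔWAPL/ΔSCC4 cells none passed against control A, while 4.65% of all genes rose and 3.3% fell. Against clone 3.3, 1 rose and 1 fell (6.05% and 4.55% of all genes). Against ΔSCC4 cells, 1 rose and 2 fell (13.7% and 13.6%). TAF7, a general transcription factor subunit that lies between the beta and gamma clusters, had 145 ± 17.4 CPM in control A, 159 ± 3.77 in clone 3.3 and 156 ± 15.1 in ΔSCC4 cells (SD, n = 3).

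Of 12 protocadherins outside the clusters, 11 were in the tables and 8 could be tested over both clones. Of these, 5 rose and 1 fell, the PCDH1 named above, against 8.56% and 9.13% of all genes. PCDH17 rose by 2.69 on the log2 scale (SE 0.14, adjusted p = 7.55e-09), PCDH11X by 2.79 (SE 0.15, adjusted p = 9.74e-09), PCDH7 by 3.14 (SE 0.19, adjusted p = 2.50e-08), PCDH9 by 2.17 (SE 0.14, adjusted p = 4.01e-08) and PCDH8 by 1.99 (SE 0.46, adjusted p = 0.00737, all from edgeR). The PCDH8 value rested on clone 3.3, with 1.89 ± 0.151 CPM against 0.188 ± 0.125 in control A (SD, n = 3). In clone 1.14 it had 0.297 to 0.543 CPM, overlapping 0.169 to 0.471 in control B, and the clones differed by 3.05 on the log2 scale (SE 0.65, adjusted p = 0.0207 from edgeR). These adhesion genes each have their own locus and share no exon. PCDH9 was also higher in ΔSCC4 cells, at 58.1 ± 7.41 CPM against 10.25 ± 2.01 in control A (SD, n = 3), while in ΔWAPL/ΔSCC4 cells it stood at 12.2 ± 0.601 (SD, n = 3). Against clone 3.3, 6 of these 8 genes fell in ΔWAPL/ΔSCC4 cells and 1 rose, against 4.55% and 6.05% of all genes.

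Of 25 genes that regulate the clusters or build and load cohesin, all tested, 1 rose and 1 fell over both clones: RAD21, the cohesin subunit (log2 fold change 0.34, SE 0.10, adjusted p = 0.0301 from edgeR), and WAPL itself, against 8.56% and 9.13% of all genes. CTCF had 136 ± 8.20 CPM in control A, 129 ± 12.5 in clone 3.3, 140 ± 3.02 in ΔSCC4 and 124 ± 11.4 in ΔWAPL/ΔSCC4 cells (SD, n = 3), and passed in no comparison. In ΔSCC4 cells STAG1, a cohesin subunit, rose (0.69, SE 0.14, adjusted p = 0.0108 from edgeR) and MAU2 fell. SMCHD1, a repressor known to act on the clusters, passed only in ΔWAPL/ΔSCC4 against ΔSCC4 cells (0.43, SE 0.13, adjusted p = 0.0223 from edgeR).

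Markers of other cell types were read in the same libraries. Of the haematopoietic markers, PTPRC was at 0 in 13 of 18 samples, ITGAM in 12 and CD34 in 10, each with at most 2 counts, while SPN had at most 6 counts and CD33 at most 7. Of the neuronal markers, 5 of 6 were in the tables and 2 could be tested, SYT1 and SYP, while SNAP25, RBFOX3 and STMN2 had at most 7 counts. Their sum ranged from 24.1 to 27.5 CPM in control A, 10.8 to 12.6 in clone 3.3, 19.5 to 21.6 in ΔSCC4, 7.50 to 8.25 in ΔWAPL/ΔSCC4, 15.6 to 20.7 in control B and 15.7 to 17.3 in clone 1.14. The sum of the 5 fibroblast markers, of which DCN was at 0 in 16 samples and COL1A2 in 15, ranged from 22.9 to 27.5 CPM in control A, 54.3 to 62.0 in clone 3.3, 37.8 to 53.0 in ΔSCC4, 41.2 to 44.7 in ΔWAPL/ΔSCC4, 41.1 to 45.6 in control B and 68.5 to 78.1 in clone 1.14. This sum, made up almost wholly of PDGFRA and COL1A1, was higher in both ΔWAPL clones than in their controls, as the alpha sum was, and its part in these results was not tested. BCR and ABL1, which are fused in this line, were read in all 18 samples.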

How the data were processed

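RNA-seq counts of 18 HAP1 samples were used, 3 in each of 6 groups. The deposited values are whole-number counts of reads per gene, which the authors made with TopHat2 (2.0.9) on hg19 and HTSeq, as the submitters' processing notes name them. The study's methods name another TopHat version. The HTSeq mode, strand setting and annotation release are not given in the sources used here. Lines that name no gene stayed out of library sizes and tests. As a share of all reads in these tables, reads on no gene made up 4.04 to 5.22%, ambiguous reads 1.47 to 1.73% and reads not aligned uniquely 14.3 to 16.1% per sample.

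Symbols and exons came from GENCODE release 44 placed on GRCh37, which held 96.6% of the gene IDs. Promoters came from the RefSeq table of GRCh38.p14 and were placed on GRCh37 by exact match. Knockout groups were put with the controls of set A or B by the run number in the deposited file names.

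Genes with enough reads by filterByExpr were tested with edgeR (4.0.16, R 4.3.3) by the quasi-likelihood test on the deposited counts with TMM normalization, with Benjamini-Hochberg adjustment over all genes tested and a threshold of 0.05. Fold changes compare groups in the order they are named. Each SE was derived from the log2 fold change and the F statistic. The 95% intervals of log2 fold changes were taken from this SE with the normal distribution. They ignore the few degrees of freedom of the test and are therefore too narrow. An exact permutation test of 3 samples against 3 cannot go below 0.10 and was not used. The scripts were tested on simulated data. Tables and plots were made with Python (3.11.15), pandas (2.3.3) and matplotlib (3.10.9).

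The labels number the replicates. Numbers were taken to pair the samples where every pair's deviations correlated over 0.1. This held only between ΔSCC4 cells and control A (correlations of 0.821, 0.206 and 0.745), a pairing that comes from the data, while clone 1.14 and control B, at 0.099, 0.456 and 0.298, fell just short. For ΔSCC4 cells the fit with the replicate number as a block is given beside the first. The alternatives were DESeq2 (1.42.0), DESeq2 size factors in edgeR, a single fit of all 18 samples, the replicate block, no filter on low counts, a filter of at least 10 counts in each sample and leaving out each sample in turn.

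The members, the gene lists and the tests were chosen with earlier results of these data known. Named members are all those past the threshold in 1 or more comparisons and the 3 with the highest level per kb of unshared exon in each cluster, and values in each sample are given for those past it in 2 or more. The interaction of WAPL and SCC4 loss and the cluster sums without their leading member were added after the data were seen. Depth, at 10007646 to 20711127 counts per sample, limits the members with few reads, and precision is that of 3 samples per group. One marker of the haematopoietic list is not reported here.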

Additional observations from a re-analysis of the deposited data

Results flagged for a closer look

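For 7 values, a test of the difference between contrasts passed the threshold (edgeR's quasi-likelihood test, Benjamini-Hochberg adjusted). The change with WAPL loss was larger in clone 3.3 than in clone 1.14 for PCDHB2, by 1.17 on the log2 scale (SE 0.23, adjusted p = 0.0115), and for PCDHB3, by 1.09 (SE 0.26, adjusted p = 0.0454). In the interaction of WAPL and SCC4 loss, PCDHB2 stood 1.25 above the sum of the single changes (SE 0.25, adjusted p = 0.00384) and PCDHB8 1.39 above it (SE 0.41, adjusted p = 0.0397). The interaction was -1.79 for PCDHB3 (SE 0.30, adjusted p = 0.00101), -1.21 for PCDHB5 (SE 0.18, adjusted p = 0.000386) and -1.42 for PCDHA3 (SE 0.27, adjusted p = 0.00245). Each group is 1 clone, so clone and genotype cannot be told apart in these differences.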

How the results depend on the processing

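Under the alternatives, 607 of 650 values of the 48 called member results kept their direction and their side of the threshold, 43 lost the call and 0 changed sign. Of the losses, 34 came from the 372 values that leave out 1 sample. The number of members called over both ΔWAPL clones was 7 of 20 tested, with 17.7% of all genes called. It was 12 of 50 with no filter (14.3% of all genes) and 11 of 21 in one fit over all 18 samples (21.2%). With 1 sample left out it was 8 to 11 of 22 to 24 (14.3 to 22.2%). For ΔSCC4 cells it was 3 of 15 (9.49% of all genes), and 1 of 8 with at least 10 counts in every sample (7.2%). It was 8 of 21 in one fit over all 18 samples (19.7%) and 8 of 15 with the replicate block (46.0%). With 1 sample left out it was 2 to 6 of 16 to 17 (5.25 to 18.3%). For ΔWAPL/ΔSCC4 cells against control A it was 5 of 15 (7.95% of all genes), and 9 of 21 in one fit over all 18 samples (11.4%). Against clone 3.3 it was 3 of 15 (10.6%), and 3 to 5 of 15 to 17 with 1 sample left out (6.79 to 14.2%). Against ΔSCC4 cells it was 9 of 16 (27.3%). With at least 10 counts in every sample it was 4 of 9, beside 2970 of all 11860 genes. The other members of the 9 called were not tested under that filter. For the difference between the clones it was 2 of 20 (2.65% of all genes). It was 1 with DESeq2 size factors (2.6%), with at least 10 counts in every sample (1.78%) and with the replicate block (1.35%). With 1 sample left out it was 1 to 2 (1.69 to 2.88%). Between the control sets it was 0 of 18 (0.64% of all genes), and 3 of 21 in one fit over all 18 samples (3.14%). In the following comparisons not every pair of same-numbered samples correlated over 0.1, and the values are those with the replicate block. Over both clones it gave 7 of 20 (12% of all genes). It gave 8 of 14 for clone 3.3 (6.14%) and 6 of 20 for clone 1.14 (24%). For ΔWAPL/ΔSCC4 cells it gave 6 of 15, 3 of 15 and 9 of 16 in the order above (7.5%, 14.5% and 26.5%). Between control sets it gave 0 of 18 (1.3%). For the interaction it gave 4 of 17 (10%), where the fit without it gave 5 (11.3%). The causes of these moves were not tested. Members with few reads could not be tested at this depth.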
